A study of Mus musculus with 12 samples.

Results

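Transcripts of 10 genes of blood vessel endothelium and the blood-nerve barrier were examined in dorsal root ganglia (DRG) of mice with schwannoma-prone nerves. The genes were Pecam1, Cdh5, Cldn5, Kdr, Flt1, Tek, Tie1, Vwf, Plvap and Mfsd2a, taken by symbol from a table of 49315 genes. Each symbol matched 1 row, and all 10 passed the count filter that left 18295 genes for testing. RNA from about 8 ganglia of each of 12 mice, aged 10 months, was sequenced in bulk as 1 library. The 6 Nf2 mice carried Postn-Cre(+) and Nf2 flox/flox, and the 6 DKO mice carried Postn-Cre(+), Nf2 flox/flox and Fak1 flox/flox, where Fak1 is the gene annotated as Ptk2. Both genotypes therefore lacked Nf2 in cells that had expressed the Periostin-driven Cre, which the study describes as Schwann cells and their precursors. The genotypes differed in Fak, a tyrosine kinase that relays signals from sites of matrix adhesion. No mouse with intact Nf2 was analysed here. Each genotype held 3 mice labelled male and 3 labelled female.

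The comparison asked how transcripts of the vessel wall differed between ganglia without Nf2 and ganglia without both genes. Vessels inside nerves are lined by endothelial cells joined by tight junctions, and together with the perineurial sheath they form the blood-nerve barrier. Barrier endothelium limits both leakage between cells and vesicular transport through them. Its growth and stability are set by VEGF acting on the receptors encoded by Kdr and Flt1 and by angiopoietins acting on the receptor encoded by Tek. Vessels within a DRG are known to be more permeable than those inside the nerve trunk. In whole-ganglion RNA, fewer endothelial cells and less RNA per cell cannot be told apart.

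The bases upstream of Flt1 and Kdr are shown because these 2 receptors share a ligand and their ratio is compared between genotypes below. Each window holds the 250 bases before the RefSeq start of the gene on GRCm38.p6, written 5' to 3' on the gene's strand. Capitals mark GGAAG or its reverse complement CTTCC, the letters searched for ETS factors, a family long tied to endothelial genes. The core of ETS sites is the shorter GGAA, which was not searched alone, so both windows hold further cores that are not marked.
Flt1, chr5:147726012-147726261, minus strand: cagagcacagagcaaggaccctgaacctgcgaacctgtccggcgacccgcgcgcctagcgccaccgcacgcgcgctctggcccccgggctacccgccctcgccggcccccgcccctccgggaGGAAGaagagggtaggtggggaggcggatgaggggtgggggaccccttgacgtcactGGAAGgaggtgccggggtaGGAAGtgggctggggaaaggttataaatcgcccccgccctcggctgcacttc
Kdr, chr5:75978456-75978705, minus strand: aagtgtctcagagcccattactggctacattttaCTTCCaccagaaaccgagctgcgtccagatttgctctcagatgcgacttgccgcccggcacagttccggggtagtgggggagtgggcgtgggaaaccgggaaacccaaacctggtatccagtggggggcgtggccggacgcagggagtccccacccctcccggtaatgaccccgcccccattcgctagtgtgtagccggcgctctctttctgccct
The Flt1 window held 3 matches, which began at -128, -71 and -52 from the start, and the Kdr window held 1, at -216. The RefSeq table matched 6 of the 10 genes (Cldn5, Flt1, Kdr, Mfsd2a, Tek and Tie1), and 3 of these 6, Flt1, Kdr and Tie1, had the letters on either strand, against 64.1% of 32851 promoter windows of the same length. GATAA, searched on both strands for GATA factors, was in 0 of the 6 windows and in 22.6% of all windows. ACAAT, searched on both strands for SOX factors, was in the Tek window alone among the 6 and in 27.7% of all windows. These matches describe the letters only.

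Libraries held 21129191 to 41250329 counts, and the 10 genes together held 3605 to 9395 of them per mouse. Values are given as CPM, the count of a gene scaled to the library total. No library pair agreed within sampling noise. Ptk2, the gene that the genotypes differ in, overlapped between them in whole-ganglion counts, and Nf2 is targeted in both. Ptk2 was at 70.0 ± 3.60 CPM in Nf2 and 64.0 ± 10.4 CPM in DKO mice (SD, n = 6; log2 fold change -0.15, edgeR adjusted p = 0.529). Nf2 was at 128 ± 12.4 and 118 ± 11.2 CPM. Mitochondrial genes took 4.45% of the counts in Nf2 mouse 649 and 5.60% in DKO mouse 887, against 1.99% to 3.15% in the other mice. Mouse 702, labelled male, went against its label, with Xist at 496 CPM and Ddx3y at 0.525 CPM, where the females had 428.5 to 637 CPM of Xist and the other males 76.0 to 86.3 CPM of Ddx3y.

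None of the 10 genes passed an adjusted p of 0.05 by edgeR's quasi-likelihood F test, against 0.940% of all tested genes (172 of 18295), of which 0.372% were higher in DKO mice. The fitted log2 fold change, DKO against Nf2, was above 0 for 8 of the 10 genes, against 51.0% of all genes, and its median was 0.206, against 0.005. An unadjusted p under 0.05 was reached by 2 of the 10, Flt1 and Vwf, both higher in DKO mice, where 14.9% of all genes reached it and 6.91% did so in that direction. DESeq2's Wald test called 1 of the 10, Flt1, and 4.54% of all genes. The genotypes overlapped for every one of the 10 genes, and did not overlap for 1.95% of all genes. The summed level of the 10 genes was 154 to 215 CPM in Nf2 mice, with a median of 171, and 179 to 298 CPM in DKO mice, with a median of 218.

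**Figure D1:**
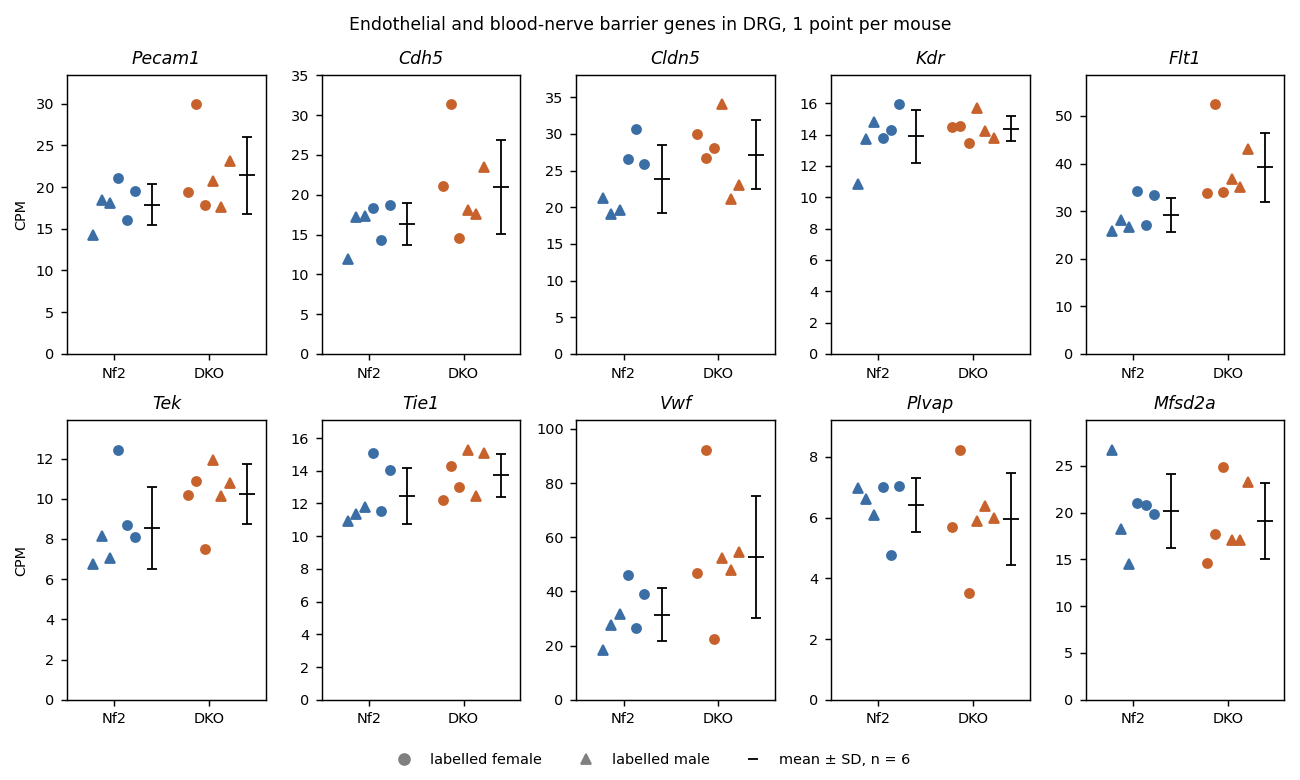
CPM (vertical axes, from 0) of each of the 10 genes in 6 Nf2 and 6 DKO mice, with circles for mice labelled female, triangles for mice labelled male, and a bar with whiskers for the mean ± SD. The genotypes overlap in every panel, with Flt1 and Vwf the furthest apart.

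Of the VEGF receptor genes, Flt1 had the larger fitted genotype difference. Flt1 (ENSMUSG00000029648, chr5:147561604-147726011 on GRCm38, minus strand) encodes a receptor that binds VEGF tightly but signals weakly, and a soluble form that traps it. Flt1 read 25.8, 28.1, 26.7, 34.2, 27.0 and 33.5 CPM in Nf2 mice 649, 702, 884, 918, 1048 and 1049. In DKO mice 885, 886, 887, 914, 915 and 917 it read 33.8, 52.4, 34.0, 36.8, 35.0 and 43.0 CPM. Thus 4 DKO mice lay above every Nf2 mouse, 5 Nf2 mice lay below every DKO mouse, and 918 alone reached into the DKO range. The means were 29.2 ± 3.67 and 39.2 ± 7.32 CPM (SD, n = 6), and the log2 fold change was 0.41 ± 0.12 (SE), with a 95% interval of 0.15 to 0.66, an unadjusted p of 0.00402 and an adjusted p of 0.120. DESeq2's adjusted p was 0.0349 at the same size, 0.41, and the adjusted p over all settings ran from 0.0349 to 0.711. Gene-level counts do not separate the soluble from the membrane form.

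Kdr (ENSMUSG00000062960, chr5:75932827-75978458, minus strand) encodes the main signaling receptor for VEGF on endothelium. Kdr was measured at 10.8, 13.7, 14.8, 13.8, 14.3 and 15.9 CPM in the Nf2 mice, in the same order of mice, and at 14.5, 14.6, 13.4, 15.7, 14.2 and 13.8 CPM in the DKO mice. Every DKO mouse lay inside the Nf2 range, and mouse 649 alone lay below all DKO mice. The log2 fold change was 0.03 ± 0.08 with a 95% interval of -0.15 to 0.21 and an adjusted p of 0.899. Its sign turned in 4 alternative settings, among them without mouse 649 (-0.027).

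The ratio of Flt1 to Kdr within a library removes the scaling of the library. The log2 ratio in Nf2 mice was 1.25, 1.03, 0.848, 1.31, 0.922 and 1.07, and in DKO mice 1.22, 1.85, 1.34, 1.23, 1.30 and 1.64. All 6 DKO mice lay above the Nf2 mean, and the ranges met between 1.22 and 1.31, where Nf2 mice 649 and 918 and DKO mice 885, 914 and 915 lay. The mean was 1.07 ± 0.180 in Nf2 and 1.43 ± 0.256 in DKO mice, a difference of 0.357 (exact permutation of the 12 mice, two-sided p = 0.0195, adjusted p = 0.0779 over 6 ratios). On the log2(CPM + 4) scale the study used, the difference was 0.328 and the adjusted p of the exact test was 0.0325. With 4 CPM added, the difference no longer removes library scaling in full. Without the added 4 CPM, 0 of the 12 sets that each left out a mouse passed (adjusted p of the exact test 0.0649 to 0.136).

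**Figure D2:**
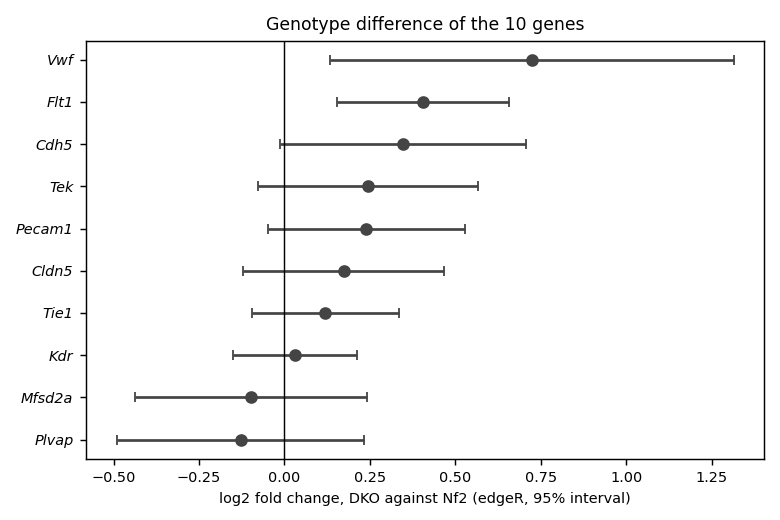
Log2 fold change of each gene, DKO against Nf2, by edgeR (horizontal axis; points, with bars for the unadjusted 95% interval), ordered from lowest to highest. The intervals of Vwf (0.13 to 1.31) and Flt1 (0.15 to 0.66) lie above 0, and the other 8 span it.

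Vwf (ENSMUSG00000001930, chr6:125546774-125686679, plus strand) encodes von Willebrand factor, the clotting protein that endothelium stores, most of all in veins, and that megakaryocytes also make. It had the highest fold change of the 10 and the widest spread. In the Nf2 mice, 18.2, 27.4, 31.8, 45.9, 26.3 and 39.0 CPM of Vwf were counted. In the DKO mice, the values were 46.7, 92.1, 22.3, 52.3, 48.0 and 54.7 CPM. All DKO mice but 887 lay above every Nf2 mouse, and 887 lay below all Nf2 mice but 649. The means were 31.5 ± 9.83 and 52.7 ± 22.5 CPM, and the log2 fold change was 0.72 ± 0.27, with a 95% interval of 0.13 to 1.31, an unadjusted p of 0.0201 and an adjusted p of 0.225. Without DKO mouse 886, the highest, the log2 fold change was 0.487, and without 887 it was 0.868, with an adjusted p of 0.0865. Platelet and megakaryocyte markers summed to 9.45 to 23.0 CPM in Nf2 mice (median 13.0) and to 14.7 to 23.2 CPM in DKO mice (median 16.3), with 4 of 4 tested markers above 0 in log2 fold change and Gp9 too low to test. Their most abundant members, Itga2b and Pf4, had log2 fold changes of 0.15 (adjusted p = 0.665) and 0.24 (adjusted p = 0.659). Erythroid markers summed to 36.4 to 540 CPM (median 217) and 59.7 to 763 CPM (median 469), with Hba-a1 at 0.73 (adjusted p = 0.584) and Hbb-bs at 1.07 (adjusted p = 0.451). The part of blood in the Vwf values was not tested.

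Set against the geometric mean of Pecam1, Cdh5 and Tie1, called the pan-endothelial level here, Vwf had a log2 ratio of 0.985 ± 0.273 in Nf2 and 1.43 ± 0.460 in DKO mice. The difference of 0.447 had an exact permutation p of 0.0649 (adjusted p = 0.130), and 5 of 6 DKO mice lay above the Nf2 mean. DKO mouse 887 lay far below the others, at 0.574 against 1.44 to 1.96. Without that mouse the difference was 0.618, with an adjusted p of 0.0260 by the same exact test. That was the only 1 of the 12 sets leaving out a mouse that passed. Without DKO mouse 886, the highest, the difference was 0.341, with an adjusted p of 0.264 by that test.

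The junction genes Pecam1 and Cdh5 varied together from mouse to mouse. Pecam1 (ENSMUSG00000020717, chr11:106654217-106750628, minus strand) encodes CD31, an adhesion molecule of endothelial contacts that platelets and leukocytes also carry. It stood at 14.3, 18.5, 18.0, 21.1, 16.0 and 19.5 CPM in the Nf2 mice, and at 19.4, 29.9, 17.8, 20.7, 17.6 and 23.1 CPM in the DKO mice. Only DKO mice 886 and 917 lay above every Nf2 mouse. By edgeR this was a log2 fold change of 0.24 ± 0.13, with a 95% interval of -0.05 to 0.53 and an adjusted p of 0.441.

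Cdh5 (ENSMUSG00000031871, chr8:104101625-104144511, plus strand) encodes VE-cadherin, the adherens junction cadherin of endothelium. Nf2 mice had 11.9, 17.2, 17.4, 18.3, 14.3 and 18.6 CPM of Cdh5, and DKO mice had 21.1, 31.3, 14.6, 18.1, 17.5 and 23.5 CPM. DKO mice 885, 886 and 917 lay above every Nf2 mouse. That gave a log2 fold change of 0.35 ± 0.17, with a 95% interval of -0.01 to 0.71 and an adjusted p of 0.358. Without mouse 886 it was 0.195 for Cdh5 and 0.120 for Pecam1, the lowest of the 12 fits that each left out a mouse.

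The barrier genes proper were the 3 with specialised roles in tightness and transport. Cldn5 (ENSMUSG00000041378, chr16:18776847-18778262, plus strand) encodes claudin-5, the claudin that seals endothelial tight junctions. Cldn5 levels were 21.2, 19.1, 19.6, 26.6, 30.7 and 25.9 CPM in the Nf2 mice and 30.0, 26.7, 28.1, 34.0, 21.1 and 23.0 CPM in the DKO mice. A single DKO mouse, 914, lay above every Nf2 mouse, and all 3 mice labelled male in Nf2 lay below all 3 labelled female. The lowest of them, mouse 702 at 19.1 CPM, is the one whose Xist and Ddx3y went against its label. By those transcripts the sexes overlapped in the Nf2 mice. Between genotypes the log2 fold change was 0.17 ± 0.14, with a 95% interval of -0.12 to 0.47 and an adjusted p of 0.612. Relative to the pan-endothelial level, the log2 ratio was 0.624 ± 0.310 and 0.573 ± 0.353, with an exact permutation p of 0.784 (adjusted p = 0.784).

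Mfsd2a (ENSMUSG00000028655, chr4:122946850-122961188, minus strand) encodes a lipid transporter that restrains vesicle traffic across brain endothelium and is also expressed outside vessels. In Nf2 mice it was at 26.7, 18.2, 14.5, 21.1, 20.8 and 19.8 CPM, and in DKO mice at 14.6, 17.8, 24.9, 17.0, 17.1 and 23.3 CPM. Within each genotype its highest value was in 649 or 887, the mouse in which most of the other genes were lowest. The log2 fold change was -0.10 ± 0.16, with a 95% interval of -0.44 to 0.24 and an adjusted p of 0.824, and it was 0.004 without mouse 649. Relative to the pan-endothelial level the difference was -0.323, with an exact permutation p of 0.217 (adjusted p = 0.320).

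Plvap (ENSMUSG00000034845, chr8:71497765-71511752, minus strand) encodes the diaphragm protein of fenestrae and caveolae and marks leaky vessels, which a tight barrier lacks. It was detected in every mouse, at 6.98, 6.60, 6.08, 7.00, 4.77 and 7.03 CPM in Nf2 and at 5.69, 8.22, 3.50, 5.89, 6.40 and 6.00 CPM in DKO mice. DKO mice spanned a wider range, with 886 above and 887 below every Nf2 mouse. The log2 fold change was -0.13 ± 0.17, with a 95% interval of -0.49 to 0.23 and an adjusted p of 0.779, and it was 0.001 without mice 649 and 887. Relative to the pan-endothelial level, Plvap had a log2 ratio of -1.26 ± 0.243 in Nf2 and -1.64 ± 0.268 in DKO mice. All 6 DKO mice lay below the Nf2 mean, and the ranges, -1.54 to -0.815 and -2.10 to -1.29, overlapped. The difference of -0.381 had an exact permutation p of 0.0260 and an adjusted p of 0.0779 over the 6 ratios. The adjusted p of the exact test was 0.0325 on the log2(CPM + 4) scale. With Cdh5 alone as the reference it was 0.0346, adjusted over the Cldn5, Mfsd2a, Plvap and Vwf ratios only. That value is therefore not directly comparable with those adjusted over all 6 ratios. Of the 12 sets that each left out a mouse, 1 passed (adjusted p of the exact test 0.0390 to 0.136).

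The angiopoietin receptor genes had small differences. Tek (ENSMUSG00000006386, chr4:94739289-94874976, plus strand) encodes Tie2, the receptor that angiopoietins bind. Tek was at 6.77, 8.14, 7.04, 12.4, 8.69 and 8.11 CPM in Nf2 mice and at 10.2, 10.9, 7.48, 11.9, 10.2 and 10.8 CPM in DKO mice. Nf2 mouse 918 held the highest value of all, so no DKO mouse lay above every Nf2 mouse. Its log2 fold change was 0.24 ± 0.15, with a 95% interval of -0.08 to 0.57 and an adjusted p of 0.486. Without mouse 918 it was 0.384.

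Tie1 (ENSMUSG00000033191, chr4:118471191-118490061, minus strand) encodes the partner of Tie2, which binds no angiopoietin on its own. Nf2 mice read 10.9, 11.3, 11.8, 15.1, 11.6 and 14.0 CPM of Tie1, and DKO mice 12.2, 14.3, 13.0, 15.2, 12.5 and 15.1 CPM. The 4 lowest Nf2 mice lay below every DKO mouse. Its log2 fold change was 0.12 ± 0.10, with a 95% interval of -0.10 to 0.34 and an adjusted p of 0.634. The log2 ratio of Tie1 to Tek was 0.566 ± 0.205 and 0.430 ± 0.197, with an exact permutation p of 0.266 (adjusted p = 0.320).

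Neither sex nor its interplay with genotype passed the test for any of the 10 genes, by labelled sex (0.0164% and 0.0109% of all genes passed, 3 and 2 genes). Cldn5 had the smallest unadjusted p for sex, at a male minus female log2 difference of -0.29 ± 0.12 (edgeR unadjusted p = 0.0256, adjusted p = 1.00). Without mouse 702 it was -0.260, and no fit counted that mouse as female. The genotype difference of Tek was -0.040 in females and 0.540 in males, and the interaction was 0.57 ± 0.27 (edgeR unadjusted p = 0.0576, adjusted p = 0.920), or 0.659 without mouse 702. Without Nf2 mouse 918, the female with the highest Tek value, the interaction was 0.351 ± 0.229. That was the lowest of the 12 fits that each left out a mouse. Females alone also gave a log2 fold change of -0.047 for Tie1.

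Compared per length of exon, the barrier claudin was the most abundant of the 10 transcripts. Cldn5 was at 18.0 ± 3.36 CPM per kb (SD over 12 mice) and Mfsd2a at 8.74 ± 1.72, without overlap. Cdh5 followed at 4.44 ± 1.19, and it lay below Mfsd2a and above Pecam1 in 12 of 12 mice. Pecam1 at 3.16 ± 0.637 and Plvap at 3.11 ± 0.606 did not differ beyond their spread, as Pecam1 was higher in 6 of 12 mice. Tie1 (2.66 ± 0.325), Vwf (2.62 ± 1.24) and Flt1 (2.53 ± 0.562) were likewise within their spread, with Tie1 above Vwf and Vwf above Flt1 in 7 of 12 mice each. The order of the means was not the same in the 2 genotypes, though none of the 10 genes passed the genotype test by edgeR. Vwf was at 1.96 CPM per kb in Nf2 mice, below Flt1 (2.16) and Tie1 (2.53). In DKO mice it was at 3.28, above Plvap (3.00), Flt1 (2.90) and Tie1 (2.79). That DKO mean included mouse 886 at 5.73, with the next DKO mouse, 917, at 3.40. Plvap lay above Pecam1 in Nf2 mice (3.23 and 2.87) and below it in DKO mice (3.00 and 3.44). Tek at 1.99 ± 0.409 and Kdr at 1.57 ± 0.143 were the lowest. These levels rest on the union of annotated exons, and transcripts with a shorter 3' end would read low.

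**Figure D3:**
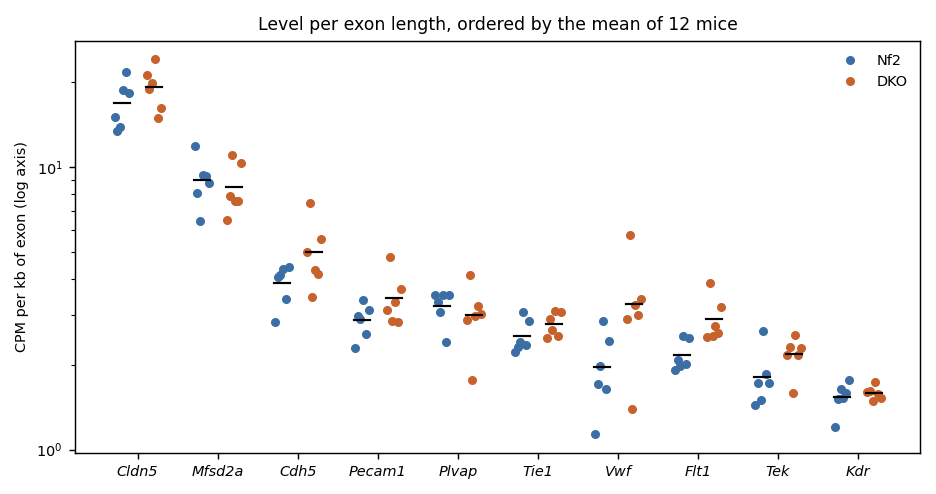
CPM per kb of exon on a log axis for the 10 genes, ordered by the mean of 12 mice, with 1 point per mouse (blue Nf2, orange DKO) and a line at each genotype's mean. Cldn5 lies above all other genes and Kdr has the lowest mean.

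Deviations from the genotype means were shared by most of the genes. Over the 12 mice, on log2(CPM + 4) centred within genotype, Pearson's r with the mean of the other 9 genes was 0.889 for Flt1, 0.879 for Vwf, 0.867 for Pecam1, 0.778 for Tie1, 0.763 for Cdh5 and 0.690 for Tek. It was 0.506 for Plvap, 0.380 for Kdr, 0.157 for Cldn5 and -0.302 for Mfsd2a. Among the 45 pairs, r was above 0 in 37 and above 0.5 in 18, with a median of 0.439, from -0.654 for Kdr with Mfsd2a to 0.938 for Pecam1 with Cdh5. The values of a mouse share 1 library and 1 dissection, so these correlations describe the libraries.

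The order of the mice followed the same grouping. Within Nf2, mouse 649 was lowest for 7 genes, the exceptions being Cldn5, Plvap and Mfsd2a, and mouse 918 was highest for 5. Within DKO, mouse 886 was highest for Pecam1, Cdh5, Flt1, Vwf and Plvap, mouse 914 was highest for the other 4 genes but Mfsd2a, and mouse 887 was lowest for 5. Mice 649 and 887 had the highest mitochondrial shares of their genotypes. Without both, Vwf had a log2 fold change of 0.755 (adjusted p = 0.0866) and Flt1 of 0.398 (adjusted p = 0.130), and none of the 10 genes passed.

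**Figure D4:**
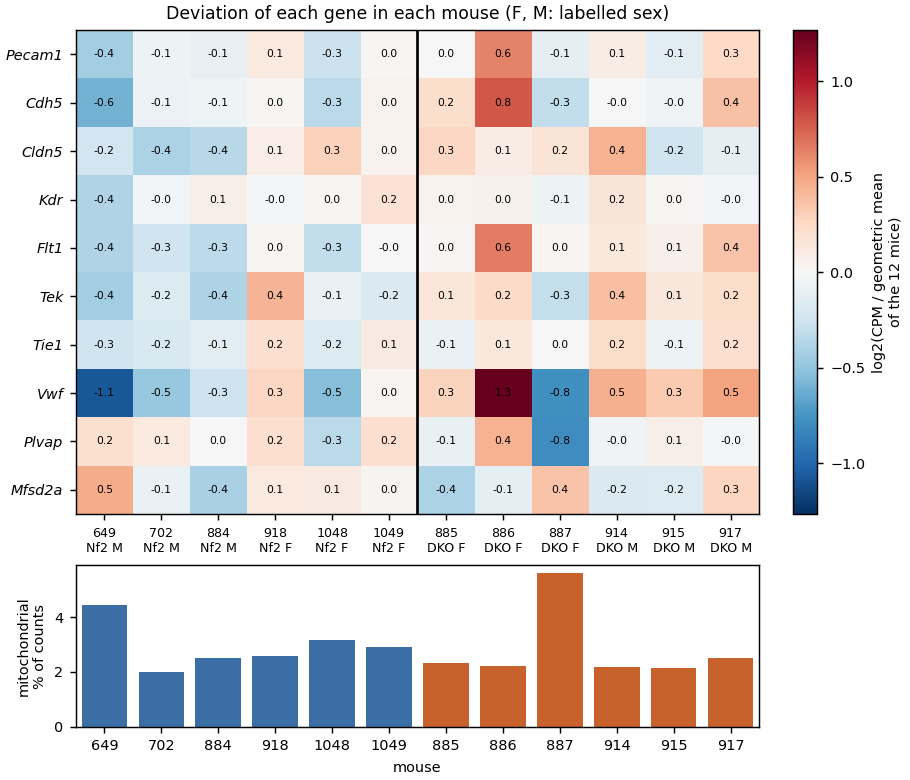
Top, log2 of CPM over the geometric mean of 12 mice for the 10 genes (rows) in each mouse (columns, Nf2 left of the line, DKO right; F and M give the labelled sex). Bottom, the mitochondrial share of counts in percent; mice 649 (4.45%) and 887 (5.60%) have the tallest bars, with most genes low in 649, Vwf and Plvap low in 887, and Mfsd2a high in both.

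Other genes of the pathway were read from 10 lists of 89 genes, of which 88 were tested and 1, Cav1, passed, a share near the 0.940% of all genes. An unadjusted p under 0.05 was reached by 23 of the 88, 16 higher and 7 lower in DKO mice, where 14.9% of all genes reached it and 6.91% did so on the higher side. Cav1 (ENSMUSG00000007655, chr6:17306335-17341452) encodes caveolin-1, the coat protein of caveolae in endothelium, which Schwann cells and fibroblasts also make. It was at 58.0, 54.8, 60.8, 64.9, 65.2 and 60.4 CPM in the Nf2 mice and rose in the DKO mice, to 72.6, 88.5, 69.9, 78.0, 74.4 and 85.1 CPM. The genotypes did not overlap for Cav1, which also held for 1.95% of all genes. Its log2 fold change was 0.34 ± 0.07 and the edgeR adjusted p 0.0270. The call was kept in 7 of the 12 fits that left out 1 mouse and was lost without 702, 884, 914, 917 or 1049 (adjusted p of 0.0536 to 0.0709), and with the muscle level as a covariate (0.0573). The log2 fold change was 0.315 to 0.346 in those 5 fits and 0.383 with the covariate. Within the caveolae list of 6 genes, 3 were above and 3 below 0 in log2 fold change. An unadjusted edgeR p under 0.05 was reached by 2 on the higher side and 2 on the lower side. Cavin1, a caveolar coat partner, was at -0.22 (adjusted p = 0.273) and Ehd2, which holds caveolae at the membrane, at -0.24 (adjusted p = 0.192). Cavin2, chosen after its values were seen, went the other way, at 11.3 CPM in Nf2 and 18.0 CPM in DKO mice (means). Its log2 fold change was 0.65, with an adjusted p of 0.134 by edgeR and 0.0355 by DESeq2.

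The 16 other endothelial identity genes had a median log2 fold change of 0.183, with 15 above 0 (51.0% of all genes), 3 at an unadjusted p under 0.05 (14.9% of all genes) and 0 passing (0.940% of all genes). Cd34, a sialomucin of endothelium and fibroblasts, was at 0.04 (adjusted p = 0.886) and Egfl7, an endothelial secreted protein, at -0.02 (adjusted p = 0.937). The 11 VEGF and angiopoietin ligands, co-receptors and regulators had a median of 0.010, with 6 above 0. At an unadjusted edgeR p under 0.05, 3 were higher in DKO mice (Ptprb, Pgf and Nrp1) and 2 lower (Vegfb and Vegfc). Of all genes, 14.9% reached that p in either direction. None of the 11 passed. Their most abundant members, the VEGF co-receptor genes Nrp2 and Nrp1, were at 0.03 (adjusted p = 0.930) and 0.23 (adjusted p = 0.239). Vegfc, a lymphatic growth factor chosen after its values were seen, averaged 3.38 CPM in Nf2 and 2.00 CPM in DKO mice, or -0.78 in log2 (adjusted p = 0.107), and DESeq2 called it (0.0179).

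Barrier lists held 0 genes past the threshold by edgeR. All 11 barrier transporters and carriers had a log2 fold change above 0, against 51.0% of all genes, with a median of 0.208. Of these 11, 4 had an unadjusted p under 0.05, against 14.9% of all genes and 6.91% on the higher side. Tfrc, the transferrin receptor gene, was at 0.08 (adjusted p = 0.714) and Slc2a1, the glucose transporter gene of barrier cells, at 0.21 (adjusted p = 0.577). Abcb1a, which encodes the drug efflux pump P-glycoprotein and was chosen after its values were seen, was at 32.1 CPM in Nf2 and 46.9 CPM in DKO mice (means), with a log2 fold change of 0.53 ± 0.17 and an adjusted p of 0.146 by edgeR, 0.0402 by limma voom and 0.0493 by DESeq2. The 10 tight junction partners of claudin-5 had a median of 0.042, with Tjp1 at 0.11 (adjusted p = 0.641) and Jam3 at -0.18 (adjusted p = 0.171). The 11 genes of Wnt and Norrin barrier signaling had a median of 0.028, with Ctnnb1 at -0.01 (adjusted p = 0.947) and Lrp6 at 0.15 (adjusted p = 0.689). Only Apcdd1, chosen after its values were seen, had an unadjusted edgeR p under 0.05 among the 11. It was lower in DKO mice, at -0.53 (adjusted p = 0.138 by edgeR and 0.0426 by DESeq2).

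Leukocyte adhesion and venular genes (4 of 5 tested) had a median log2 fold change of 0.035, with Ackr1 at -0.14 (adjusted p = 0.749) and Vcam1 at -0.12 (adjusted p = 0.782). Among 4 lymphatic endothelial genes the median was 0.157. Reln and Pdpn, which cells outside lymphatic vessels also express, made up most of that list's level, at -0.12 (adjusted p = 0.861) and -0.08 (adjusted p = 0.732). The other 2, Prox1 and Lyve1, which mark lymphatic endothelium more closely, were at 0.56 (adjusted p = 0.625) and 0.39 (adjusted p = 0.408). The 10 pericyte and smooth muscle genes had a median of 0.143, with 6 above 0. Their most abundant members, Rgs5 and Pdgfrb, were at -0.32 (adjusted p = 0.588) and -0.08 (adjusted p = 0.616). Cspg4 and Myh11, chosen after their values were seen, were at 0.41 (adjusted p = 0.120, and 0.0359 by DESeq2) and 0.46 (adjusted p = 0.389). Abcc9, chosen in the same way, went lower, at -0.41 (adjusted p = 0.303). An unadjusted edgeR p under 0.05 was reached by 1 of the 10 on the higher side, Cspg4, and 1 on the lower side, Abcc9. All 5 perineurial genes were above 0, with a median of 0.168, and the most abundant, Itgb4 and Moxd1, were at 0.05 (adjusted p = 0.850) and 0.02 (adjusted p = 0.940). An unadjusted edgeR p under 0.05 was reached by 2 of the 5, both higher in DKO mice, against 6.91% of all genes on that side. Those 2, Cldn1 and Krt19, were at 0.59 (adjusted p = 0.308) and 1.32 (adjusted p = 0.189), and Krt19 averaged only 1.04 CPM.

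**Figure D5:**
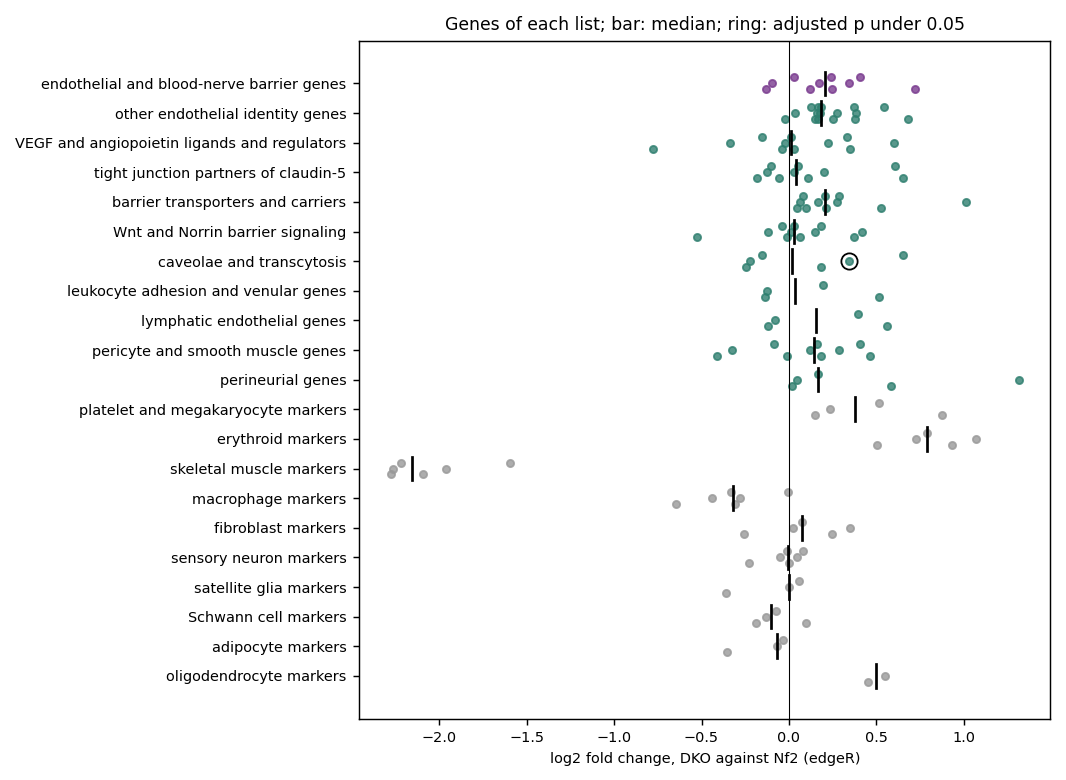
Log2 fold change, DKO against Nf2, of each tested gene (points) in the 10 endothelial and barrier genes (purple), 10 pathway lists (green) and 10 lists of cell type markers (grey), with a bar at each list's median and a ring around genes past an adjusted p of 0.05. Cav1 is the only ringed gene, and the skeletal muscle markers lie furthest from 0, with a median of -2.157.

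Markers of other cell types varied beside these values. Skeletal muscle markers summed to 7.84 to 599 CPM in Nf2 mice (median 343) and 11.5 to 176 CPM in DKO mice (median 63.7), with 6 of 6 below 0 in log2 fold change, 0 passing, and Acta1 at -2.27 (adjusted p = 0.206) and Myh4 at -1.59 (adjusted p = 0.378). With this level as a covariate, the log2 fold change was 0.425 for Flt1 (adjusted p = 0.231) and 0.857 for Vwf (adjusted p = 0.300). Macrophage markers summed to 127.5 to 188 CPM (median 171) and 111 to 147 CPM (median 125), with 6 of 6 below 0, Csf1r at -0.65 (adjusted p = 0.0566) and C1qa at -0.31 (adjusted p = 0.223). The part of these cells in the vessel values was not tested. The labelled tissue was borne out by its markers, as sensory neuron genes summed to 4104 to 5255 CPM in Nf2 and 4252 to 4939 CPM in DKO mice, led by Nefh (0.08, adjusted p = 0.690) and Prph (-0.23, adjusted p = 0.539). Schwann cell genes (4 genes) summed to 5590 to 7330 and 5368 to 7112 CPM, led by Mbp (-0.13, adjusted p = 0.620) and Pmp22 (-0.07, adjusted p = 0.776). Fibroblast genes (849 to 1035 and 861 to 1183 CPM, with Dcn at 0.25, adjusted p = 0.247, and Col1a1 at -0.26, adjusted p = 0.640) and satellite glia genes (354 to 512 and 339 to 563 CPM, with Glul at 0.06, adjusted p = 0.931, and Kcnj10 at 0.00, adjusted p = 0.997) overlapped between genotypes. Adipocyte genes were near 0, at 0.894 to 2.24 CPM in sum, with Adipoq at -0.35 (adjusted p = 0.657) and Plin1 at -0.04 (adjusted p = 0.979). Oligodendrocyte genes summed to 12.0 to 105 CPM in Nf2 and 24.8 to 144 CPM in DKO mice, with Mobp at 0.45 (adjusted p = 0.688) and Mog at 0.55 (adjusted p = 0.685).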

How the data were processed

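DRG RNA of 12 mice, 1 library per mouse, was extracted, poly(A)-selected and sequenced by a service company. The table deposited by the authors held unnormalized counts of reads for each Ensembl gene. Per the submitters' processing notes, Trimmomatic 0.36, STAR 2.5.2b and featureCounts (Subread 1.5.2) were used with GRCm38. Strand setting, annotation release and treatment of multi-mapping reads were not given in the sources used here. The methods of the study used log2(CPM + 4).

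Genotypes were compared with edgeR 4.0.16 (filterByExpr, TMM scaling, quasi-likelihood F test, no covariates, all 12 mice), with Benjamini-Hochberg adjustment over 18295 genes and a threshold of 0.05. SE and unadjusted 95% intervals came from that fit. Ratios of CPM were compared by two-sided exact permutation over the 924 ways to split them (lowest p it can give, 0.00216), and adjusted over 6 ratios. With Cdh5 alone as the reference, the adjustment was over the Cldn5, Mfsd2a, Plvap and Vwf ratios only. DESeq2 1.42.0, limma 3.58.1 (voom with quality weights), other scalings, filters, covariates and subsets were alternatives. Leaving out mice 649 and 887 together, and males without mouse 702, were added after seeing the data. The genotype fits, but not the ratio, sex or interaction tests, were tried on simulated data, with changes larger than those of the 10 genes. R 4.3.3, Python 3.11.15, pandas 2.3.3, numpy 2.4.6 and matplotlib 3.10.9 were used.

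Of the 49315 gene identifiers, 49056 (99.5%) matched GENCODE M21, which gave coordinates and exon lengths, and upstream sequences came from RefSeq (GRCm38.p6). No exon of the 10 genes overlapped another gene. The totals of 21129191 to 41250329 counts set the counting precision. Over all genes no library pair agreed within sampling noise, but counting noise was not set against the spread between mice gene by gene. Each mouse was a replicate, and litters and dissection days were not stated.

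The named genes were all 10 genes, the genes past the threshold and up to 2 of the highest mean CPM in each pathway list, up to 2 of the highest in each marker list, and the 10 genes most like the mean of the 10 in pattern. The members, lists and tests were chosen with earlier results of these data known. The lymphatic gene Ccl21a matched 2 rows and was left out. A Schwann cell marker was taken out of its list and is not reported here.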

Additional observations from a re-analysis of the deposited data

Results flagged for a closer look

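In 34 groups of 6 mice (each of the 10 genes, the 6 ratios and their summed level in each genotype), the highest or lowest mouse was set against its nearest neighbour by Dixon's test at the 95% level, and 2 stood apart where chance gives about 1.7. Tek was at 12.41 CPM in Nf2 mouse 918, with the next mouse at 8.69 CPM. The log2 ratio of Vwf to the pan-endothelial level was 0.574 in DKO mouse 887, with the next mouse at 1.442. Mouse 887 also had the highest mitochondrial share of the 12, 5.60%, and its part in the ratio was not tested.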

How the results depend on the processing

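None of the 10 genes passed in any setting but DESeq2, which called 1, Flt1. The all-gene count of 172 was 831 with DESeq2, 521 with limma voom, 74 with the muscle level as a covariate, 57 in females and 2 in males, and it was 81 to 217 when each mouse was left out. Of settings added after seeing the data, leaving out mice 649 and 887 gave 314 genes and males without mouse 702 gave 9. The pathway lists held 1 called gene among 88 tested. DESeq2 called 6 (Cavin2, Abcb1a, Cav1, Vegfc, Cspg4 and Apcdd1), where it called 4.54% of all genes. The count was 2 with limma voom and 2 without mice 649 and 887. It was 0 with the muscle covariate, in females, in males and in males without mouse 702, and 0 to 2 when each mouse was left out. The subsets held fewer mice, and otherwise the cause was not tested.

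The sign turned for Kdr with limma voom (-0.024), in females (-0.049), without mouse 649 (-0.027) and without mice 649 and 887 (-0.022), for Tek (-0.040) and Tie1 (-0.047) in females, for Plvap without mice 649 and 887 (0.001) and for Mfsd2a without mouse 649 (0.004). With each mouse left out in turn, the log2 fold changes were -0.027 to 0.069 for Kdr and -0.204 to 0.004 for Mfsd2a. None of these passed the threshold. On log2(CPM + 4) the ratio differences were -0.273 for Plvap to the pan-endothelial level and 0.328 for Flt1 to Kdr. Both were past the threshold (adjusted p of the exact test 0.0325 each). Plvap against Cdh5 alone was -0.477 (adjusted p of the exact test 0.0346). That value was adjusted over the Cldn5, Mfsd2a, Plvap and Vwf ratios only, a smaller set than in the other settings. When each mouse was left out, the differences ran from -0.122 to 0.054 for Cldn5 (above 0 without 1048 at 0.054, 886 at 0.030 and 917 at 0.025), -0.458 to -0.176 for Mfsd2a, -0.451 to -0.289 for Plvap (past the threshold without 915), 0.341 to 0.618 for Vwf (past it without 887), 0.274 to 0.404 for Flt1 to Kdr and -0.210 to -0.091 for Tie1 to Tek.

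No paired analysis was possible because the genotypes share no mouse numbers. As a guide to precision, the median SE over all genes was 0.124 and the smallest size of log2 fold change among called genes was 0.229. That SE holds both counting noise and the spread between mice, and their shares were not tested.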

Other observations

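The genes whose pattern over the 12 mice was most like the mean of the 10 endothelial and barrier genes were sought among the other 18285 tested genes, on log2(CPM + 4) centred within genotype. The 10 closest were Depdc1b (Pearson's r = 0.905), Spint2 (0.902), Rnf144b (0.897), She (0.897), Gm38285 (0.892), Acta2 (0.892), Svil (0.892), Gpc6 (0.890), Fam53b (0.888) and Dennd5b (0.887). Acta2, smooth muscle actin, was the only one on a list described above, that of pericyte and smooth muscle genes. None passed the genotype test. Dennd5b came closest, with a log2 fold change of 0.31 and an adjusted p of 0.0783, and Gm38285 was the only one below 0, at -0.10. Depdc1b was at 0.868 CPM on average, where few reads set the value. These are the highest of 18285 correlations over 12 libraries, so they describe these libraries only.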
